A study of Bos taurus with 29 samples.

Results

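CHGA, SCGN, OTOF, BAIAP3 and SNCG are genes of secretory granules and vesicle release, and they were examined in the remaining hypothalamus of heifer calves. They were chosen by name as a functional group, as 5 of the 24596 genes in the deposited table. Their identifiers were ENSBTAG00000009836 for CHGA, ENSBTAG00000019926 for SCGN, ENSBTAG00000009650 for OTOF, ENSBTAG00000014100 for BAIAP3 and ENSBTAG00000003515 for SNCG. Of the 5, 4 passed the filter on low values, which kept 13785 genes above 1 CPM (reads scaled to the size of the library) in 14 or more calves. SCGN did not pass it, and its tests come from fits of the same kind on all 19525 genes that had any read.

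The 29 calves were Angus X Holstein-Friesian heifers, with 14 on a high (HI) and 15 on a moderate (MOD) plane of nutrition. HI calves were fed 1.5 kg of milk replacer in 10 litres per day with concentrates ad libitum in a calf phase of 8 weeks, and concentrates and hay without limit in the 11 weeks after weaning, with a growth target of 1.2 kg/d. MOD calves were fed 0.5 kg of milk replacer in 4 litres and 1 kg of concentrate per day, then the same amount of concentrate with hay to appetite, with a target of 0.5 kg/d. All calves were killed at 21 weeks of age, and RNA was sequenced from the hypothalamus left after the arcuate nucleus (ARC) had been cut away. The labels start the diets at week 2, and the study's methods start them later. The calves sequenced were healthy animals chosen for growth close to the mean of their diet, and every library came from a single calf.

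Neurons and endocrine cells store peptides in dense-core granules and small transmitters in synaptic vesicles, and both fuse with the cell membrane when calcium enters. Chromogranin A, the product of CHGA, is a core protein of the granule itself. Secretagogin (SCGN) and otoferlin (OTOF) bind calcium, secretagogin through EF hands and otoferlin through the C2 domains that make it the calcium sensor of inner hair cell release. BAIAP3 is a C2 domain protein of the Munc13 family, which prepares vesicles and granules for fusion, and gamma-synuclein (SNCG) belongs to a family of proteins of nerve endings and axons. In the hypothalamus, release of this kind carries the peptides that govern feeding, water balance, milk let-down and the pituitary.

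The deposited values are normalised CPM, and the totals recovered from them were 11820640 to 17206435 reads per calf. These totals set the counting error of each value, and a count of 0 allows up to 3 reads. Over all genes tested, 4 calves lay apart from the rest, with a median correlation to the other calves of 0.816 (HI calf 2120), 0.829 (MOD calf 1689), 0.846 (MOD calf 2551) and 0.877 (MOD calf 1395), against 0.920 to 0.978 in the other 25. In calves 1689, 2120 and 2551 the normalisation factors were also the lowest, at 0.795, 0.829 and 0.875, while the others reached up to 1.12. The pieces held hypothalamic peptide genes, with AVP up to 3472 CPM, OXT up to 1070, PMCH up to 389 and HCRT up to 192. AGRP, a gene of ARC neurons, was at most 0.153 CPM in any calf. The study places POMC, NPY and CART in ARC neurons too. POMC was 11.2 to 94.7 CPM, NPY was up to 15.6 CPM and CARTPT up to 17.7 CPM. The share of ARC tissue in the pieces was not tested. In a tissue piece, fewer cells of a type and less RNA per cell cannot be told apart.

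CHGA was close in the 2 diets and set off in the 4 calves that stood apart. In the HI calves it was 188 CPM at the lowest, 298 at the median and 682 at the highest, and in the MOD calves 59.7, 315 and 946. The HI and MOD ranges overlapped throughout, and 7 of the 14 HI calves lay above the MOD median. The 3 highest calves were 1689 (946 CPM), 2551 (723 CPM) and 2120 (682 CPM), and the lowest was 1395 (59.7 CPM), which are the same 4 calves. In the other 25 calves CHGA ran from 188 to 407 CPM, with means of 288 ± 65.1 (SD, n = 13) in HI and 317 ± 53.4 (SD, n = 12) in MOD. Across the 29 calves CHGA was inversely related to the normalisation factor of the library, with r = -0.745 (permutation p = 1e-05, the smallest that 100000 resamples can give) and rho = -0.628, and without the 4 calves r was -0.412. A lower factor raises the normalised value of every gene in that calf, and its part in the CHGA values was not tested.

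SCGN was at the edge of detection in most calves and high in a few. Among the HI calves the lowest value was 0.0762 CPM, the median 0.393 and the highest 6.84, and among the MOD calves the lowest was 0, the median 1.07 and the highest 29.2. MOD calves 911 (29.2 CPM) and 2532 (27.0 CPM) stood far above all others, and the next was HI calf 1050 at 6.84 CPM. It stayed below 1 CPM in 18 of the 29 calves, 11 of them HI and 7 MOD, and no read was found in MOD calves 975 and 1395, where 3 reads would be 0.211 and 0.201 CPM. The 3 highest MOD calves held 84.4% of all SCGN signal in that diet. The HI values lay inside the MOD range, and 3 of the 14 HI calves exceeded the MOD median.

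OTOF had the same lead calves. Its lowest, median and highest values were 0.274, 1.65 and 5.93 CPM in HI and 0, 4.18 and 21.8 CPM in MOD. MOD calves 2532 (21.8 CPM), 911 (11.5 CPM) and 981 (9.15 CPM) were the highest, and only 1 of the 14 HI calves, 1531, lay above the MOD median. The low ends of both diets overlapped, since 5 calves of each were below 1 CPM and MOD calf 975 had no read (3 reads would be 0.211 CPM). The means were 1.90 ± 1.56 (SD, n = 14) in HI and 5.28 ± 5.78 (SD, n = 15) in MOD.

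BAIAP3 differed 133-fold between the highest and the lowest MOD calf. In HI it was 12.0 CPM at the lowest, 50.1 at the median and 197 at the highest, and in MOD it was 2.88, 140 and 383. The 7 highest calves of all 29 were MOD calves (2532, 1392, 911, 2346, 3622, 981 and 2537), but so were the 2 lowest, 1395 (2.88 CPM) and 975 (9.71 CPM). HI calves took ranks from 8 to 27, and 2 of the 14 were above the MOD median. The means were 74.2 ± 58.6 (SD, n = 14) in HI and 163 ± 124 (SD, n = 15) in MOD.

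SNCG was led by other calves. Its lowest, median and highest values were 2.74, 10.7 and 73.4 CPM in HI and 0.842, 36.8 and 144 CPM in MOD. The top 3 were MOD calves 2346 (144 CPM), 2551 (128 CPM) and 2537 (117 CPM), and the top HI calves were 986 (73.4 CPM) and 2120 (69.8 CPM). MOD calves 1690 (0.842 CPM), 975 (2.39 CPM) and 991 (2.70 CPM) were below every HI calf, so the HI range again lay inside the MOD range. The means were 21.3 ± 23.0 (SD, n = 14) in HI and 51.4 ± 46.7 (SD, n = 15) in MOD. Calves 2551 and 2120 are 2 of the 4 that stood apart, and without those 4 the means were 17.6 ± 19.1 (SD, n = 13) and 49.0 ± 45.9 (SD, n = 12).

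**Figure D1:**
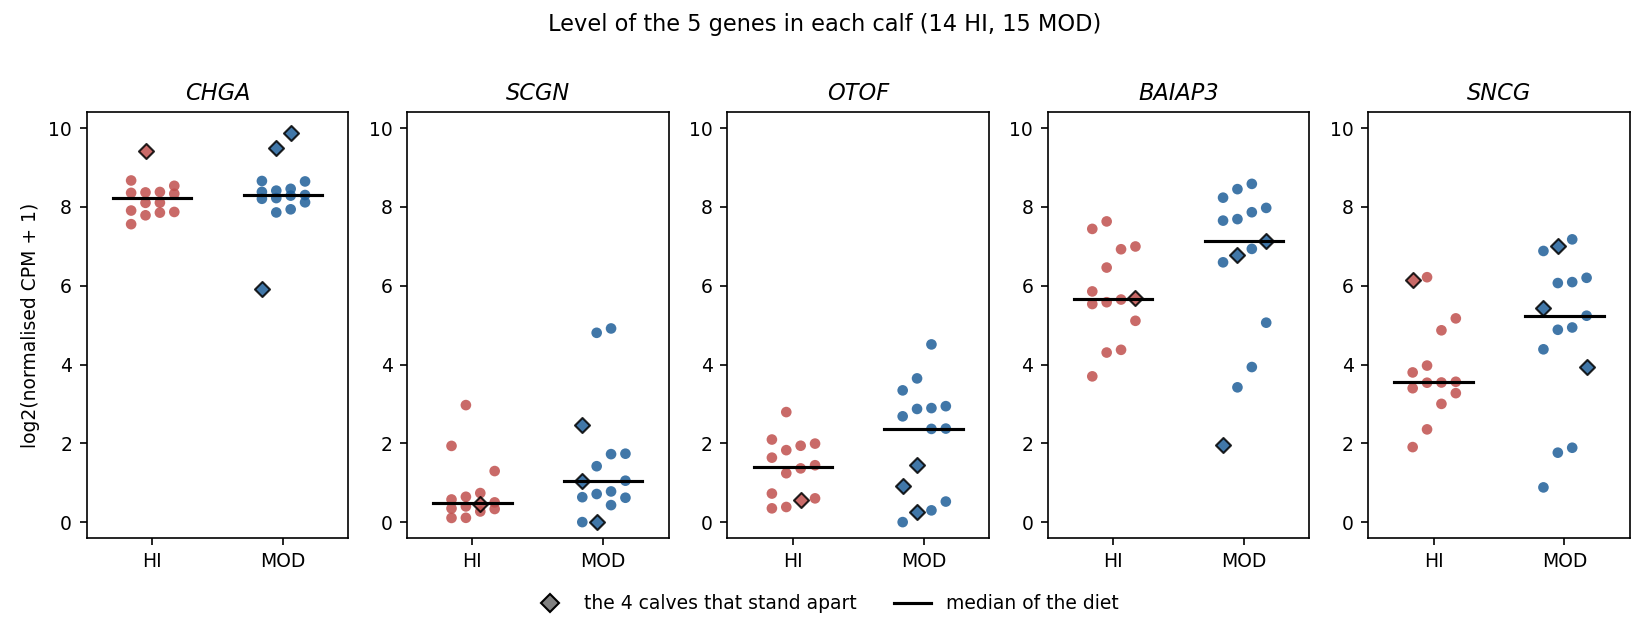
Level of each gene in each of the 29 calves, as log2(normalised CPM + 1) on the vertical axis, with HI calves in red and MOD calves in blue; bars mark the median of the diet and outlined diamonds the 4 calves that stood apart. CHGA is tight except for those 4 calves, while in the other genes the HI calves lie within the MOD range.

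MOD calves thus held the top and shared the bottom. For SCGN, OTOF, SNCG and BAIAP3 together, 3 MOD calves (2532, 911 and 2346) ranked among the 7 highest of 29 in all 4 genes, and no HI calf did. Among the 7 lowest in all 4 genes were HI calves 2528 and 2570 and MOD calf 975. MOD calves 991, 1690 and 1395 were among the 7 lowest in 3 of the 4. All 4 genes are on the study's list of genes lower in HI in these calves. The top ranks of MOD calves are therefore not independent evidence.

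The diet difference asks whether early feeding changed these genes. On log2(normalised CPM + 1), the limma log2 fold change of HI over MOD was -0.09 (SE 0.25) for CHGA, -0.73 (SE 0.44) for SCGN, -0.72 (SE 0.40) for OTOF, -0.75 (SE 0.59) for BAIAP3 and -0.94 (SE 0.59) for SNCG. No difference passed the test. Unadjusted p-values were 0.726, 0.108, 0.0845, 0.217 and 0.123 in that order, and each Benjamini-Hochberg adjusted p was 0.999. At an adjusted p under 0.10 and a fold over 1.5, limma called 0 of the 13785 genes (0%), and 1.3% of them had an unadjusted p under 0.05, none of the 5 among them. All 5 log2 fold changes were below 0, as were 42.9% of those of all genes tested, whose median was 0.02. SCGN, OTOF, BAIAP3 and SNCG stand on the list of diet genes that the study drew from these same calves, so their direction is not independent evidence; CHGA was on its ARC list.

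Tests on the recovered reads compare mean reads in place of mean log values, and their fold changes lay farther from 0. With the quasi-likelihood test of edgeR the log2 fold changes were -2.17 for SCGN (unadjusted p = 0.0112), -1.47 for OTOF (p = 0.0172), -1.14 for BAIAP3 (p = 0.0322), -1.26 for SNCG (p = 0.0348) and -0.23 for CHGA (p = 0.356). By this test 1.62% of all genes had an unadjusted p under 0.05, against 2.21% with DESeq2 and 1.25% with edgeR's exact test (tagwise dispersion), and SCGN, OTOF, BAIAP3 and SNCG were under that value in all of them. With DESeq2 the unadjusted p of SCGN was 0.00082 at a log2 fold change of -2.21. None of the 5 genes passed an adjusted p of 0.10 by any tool. The exact test called 1 gene and DESeq2 2 genes of all those tested, none of them a member. SNCG had a log2 fold change of -0.51 (unadjusted p = 0.374) when limma-voom weighted the calves by library quality.

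Single calves moved the sizes. The log2 fold change of SCGN was -0.48 without MOD calf 911, that of OTOF -0.54 without MOD calf 2532, and that of BAIAP3 -1.07 without MOD calf 1395. Without the 4 calves that stood apart, OTOF had a log2 fold change of -0.96 (SE 0.41, unadjusted p = 0.0287, adjusted p = 0.820) and BAIAP3 of -1.05 (SE 0.57, unadjusted p = 0.0739), in a fit where 828 of all 13785 genes had an unadjusted p under 0.05. For CHGA the sign itself hung on 1 calf, since the log2 fold change was 0.02 without MOD calf 1689.

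**Figure D2:**
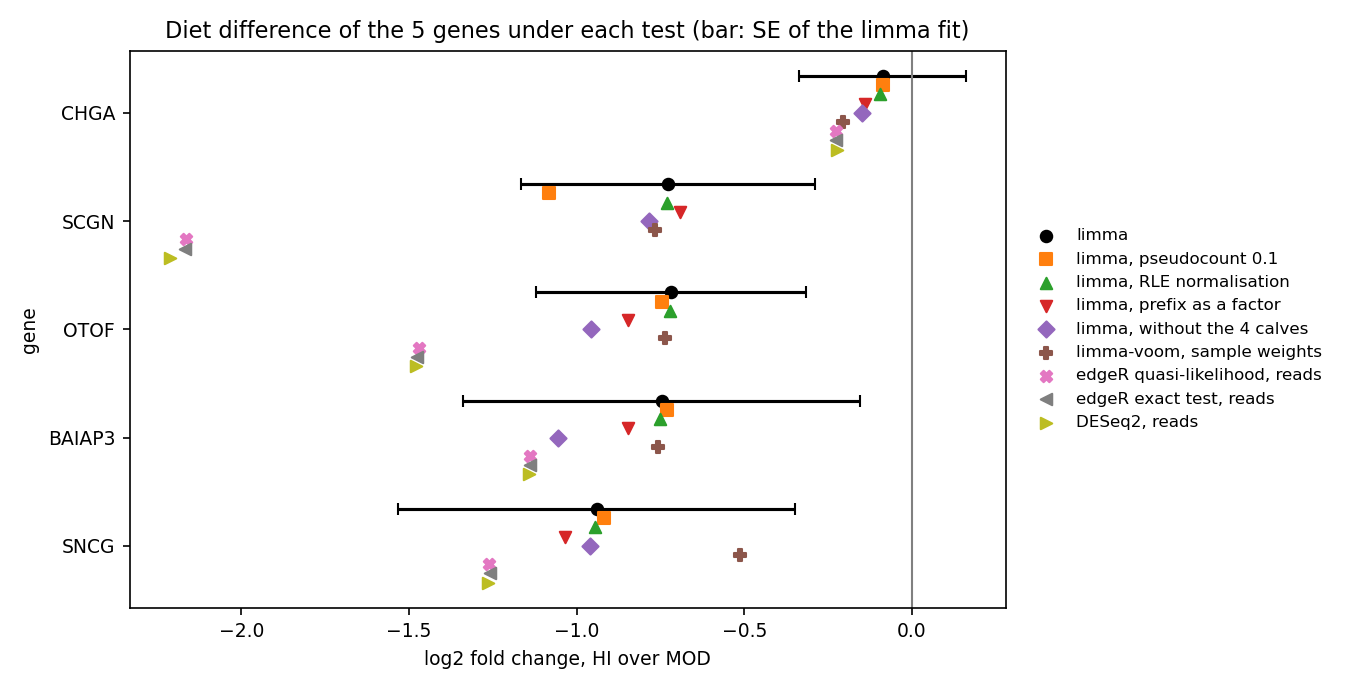
Log2 fold change of HI over MOD on the horizontal axis for each gene, under 9 fits named in the key, with the standard error of the limma fit as a bar. All points lie below 0, and those of the tests on reads lie farthest left, at -2.17 to -2.21 for SCGN.

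On the log2 scale the spread between calves was widest for SNCG and BAIAP3. The SD of log2(CPM + 1) over the 29 calves was 1.26 for SCGN, 1.17 for OTOF, 1.71 for SNCG, 1.69 for BAIAP3 and 0.68 for CHGA, where the median of all genes tested was 0.43. SNCG and BAIAP3 varied more than 99.8% of the genes tested, SCGN more than 98.4%, OTOF more than 97.4% and CHGA more than 82.0%. Without the 4 calves the SD of CHGA was 0.30, and that of the others was 1.19 to 1.71. On the linear scale the order was another, since adding 1 compresses low values. The coefficient of variation of CPM was 238% for SCGN, 125% for OTOF, 107% for SNCG, 88.7% for BAIAP3 and 50.2% for CHGA.

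The spread was also compared between the diets. The mean absolute deviation from the diet median, HI minus MOD, was -0.15 for CHGA (p = 0.440), -0.52 for SCGN (p = 0.146), -0.53 for OTOF (p = 0.0743), -0.57 for SNCG (p = 0.198) and -0.54 for BAIAP3 (p = 0.231), all unadjusted p-values from limma. The adjusted p-values were 0.849 to 0.855, and the test called 0% of the genes. The 5 values were all below 0, and so were those of 90.5% of all genes, with a median difference of -0.09, and without the 4 calves for 78.6%. For CHGA the sign turned without those calves, to 0.09 (unadjusted p = 0.275), and for BAIAP3 the difference was -0.29 (unadjusted p = 0.533). Single calves moved these differences too. Without MOD calf 1395 the difference was -0.27 for BAIAP3 and -0.01 for CHGA, without MOD calf 1690 it was -0.36 for SNCG, and without MOD calf 911 it was -0.32 for SCGN.

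SCGN, OTOF, BAIAP3 and SNCG varied together from calf to calf, and no pair with CHGA passed the test. Correlations were computed on log2(CPM + 1) over the 29 calves with 100000 permutations and were adjusted over the 10 pairs. The closest pair was OTOF and BAIAP3, with rho = 0.916 (r = 0.865, adjusted p = 3.33e-05 for rho, from the smallest p the permutations can give). SNCG and BAIAP3 followed at rho = 0.805 (r = 0.764, adjusted p = 3.33e-05), SCGN and BAIAP3 at 0.766 (r = 0.602, adjusted p = 3.33e-05), OTOF and SNCG at 0.668 (r = 0.653), SCGN and OTOF at 0.667 (r = 0.638) and SCGN and SNCG at 0.622 (r = 0.487). These 6 of the 10 pairs had an adjusted p under 0.05, and the adjusted p of the last was 0.00055. For CHGA with the other genes, the rank correlation was -0.294 to 0.052. SCGN, OTOF, BAIAP3 and SNCG are on the study's list of genes lower in HI in these calves, and CHGA is not. A shared diet difference can add to a correlation over all 29 calves, so these p-values are not independent of that list. Correlations within each diet are given below.

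BAIAP3 had the highest rho with each of OTOF, SCGN and SNCG within the group. Among all 13785 genes tested, no gene had a higher rho with OTOF or with SCGN than BAIAP3, and 16 genes had a higher one with SNCG. A rho over 0.5 was found for 2.94% of the genes with OTOF, 2.83% with BAIAP3, 5.22% with SNCG and 1.32% with SCGN.

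OTOF and SNCG each passed with BAIAP3 within both diets and among the calves that did not stand apart. OTOF and BAIAP3 had rho = 0.903 in the HI calves and 0.843 in the MOD calves, and SNCG and BAIAP3 had 0.855 and 0.682. OTOF and SNCG did not pass in the MOD calves alone, at rho = 0.539 (adjusted p = 0.0677), but passed by r, at 0.670 (adjusted p = 0.0163). Without the 4 calves, rho was 0.942 for OTOF and BAIAP3, 0.913 for SNCG and BAIAP3 and 0.855 for OTOF and SNCG. When the 2 calves farthest on the first gene of a pair were left out, r was 0.858 for OTOF and BAIAP3 (without 2532 and 911), 0.735 for SNCG and BAIAP3 (without 1690 and 2346), 0.569 for SCGN and BAIAP3 and 0.464 for SCGN and SNCG (both without 911 and 2532), and 0.625 for OTOF and SNCG. The file-name prefix of the libraries split the calves into 5 sets. It follows the order of the calf numbers, and no label says what it stands for. In the 4 sets of 6 calves rho of OTOF and BAIAP3 was 0.829 to 1.00. Centred by diet and prefix, that rho was 0.888, and those of the other 5 pairs were 0.518 to 0.715.

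SCGN passed with none of the others in HI calves taken alone. Its rho with OTOF, BAIAP3 and SNCG was 0.442, 0.411 and 0.319 in HI (adjusted p = 0.196, 0.209 and 0.297) and 0.727, 0.878 and 0.729 in MOD (adjusted p = 0.0075, 0.0005 and 0.0075). The difference between the diets was not tested. In HI, 11 of the 14 calves were below 1 CPM, where a few reads set the value. Without calves 911 and 2532, r of SCGN and OTOF was 0.389 (adjusted p = 0.0707), so that the linear relation rests on those calves, while rho was 0.588.

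CHGA ran against the group in some subsets. In the HI calves its rho was -0.697 with OTOF (adjusted p = 0.0236) and -0.626 with BAIAP3 (adjusted p = 0.0398), and by r OTOF passed, at -0.664 (adjusted p = 0.0268), and BAIAP3 did not, at -0.554 (adjusted p = 0.0929). In the MOD calves rho was -0.314 and -0.204, neither past the test. The difference between the diets was not tested. Without the 4 calves, rho was -0.407 with BAIAP3 (adjusted p = 0.0621) and -0.385 with SNCG (adjusted p = 0.0711), while by r both passed, at -0.483 (adjusted p = 0.0203) and -0.411 (adjusted p = 0.0498). Centred by diet and prefix, CHGA and OTOF passed at rho = -0.409 (adjusted p = 0.0406). In those 25 calves the normalisation factor had rho = 0.608 with OTOF, 0.695 with BAIAP3, 0.592 with SNCG and 0.623 with SCGN, and -0.422 with CHGA. Its part in these correlations was not tested.

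**Figure D3:**
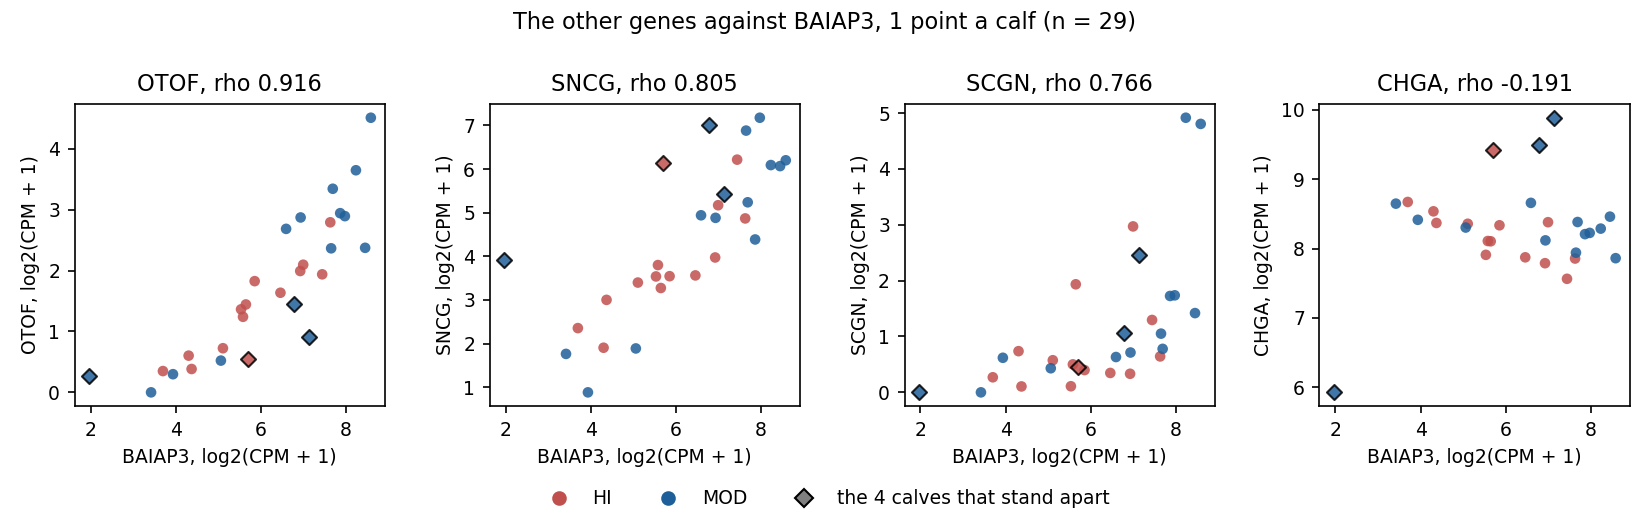
OTOF, SNCG, SCGN and CHGA on the vertical axes against BAIAP3 on the horizontal axis, all as log2(normalised CPM + 1), with 1 point for each of 29 calves, HI in red, MOD in blue and the 4 calves that stood apart as outlined diamonds. OTOF follows BAIAP3 most closely (rho 0.916), SCGN is high in a few calves, and the extreme CHGA values are the diamonds.

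The genes most like each member were taken from the 96 genes with a symbol that passed the filter, by Spearman's rho over the 29 calves. For OTOF they were BAIAP3 and GABRE (rho = 0.901), a subunit of the GABA-A receptor. For BAIAP3 they were OTOF, NNAT (rho = 0.903), the imprinted neuronatin gene, and PENK (rho = 0.896). SNCG was most like NNAT (rho = 0.809), BAIAP3 and DUSP9 (rho = 0.781), a phosphatase of MAP kinases, and SCGN was most like BAIAP3, PENK (rho = 0.757) and DUSP9 (rho = 0.720). CHGA had other neighbours, HHATL (rho = 0.713), EXTL1 (rho = 0.650) and POMC (rho = 0.533). All symbols come from the study's lists of diet genes, so these neighbours were drawn from a narrow choice.

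The peptide genes were compared with the members next. AVP, OXT, HCRT, PENK, PDYN, GAL, TAC1 and CALCB are on the study's list of genes lower in HI in these calves. As among the members, correlations over both diets are not independent of that list. Of 65 pairs of a member with one of 13 neuropeptide genes, 29 had an adjusted p under 0.05, all with a rho above 0. BAIAP3, OTOF, SNCG and SCGN each took part in 7 of them and CHGA in 1. Without the 4 calves, 28 pairs passed, 26 of them with a rho above 0. The other 2 were those of CHGA with NPY, at rho = -0.530 (adjusted p = 0.0197), and with CARTPT, at -0.50 (adjusted p = 0.0297).

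PENK, the precursor of the enkephalins, followed all 4 genes. Its rho was 0.896 with BAIAP3, 0.822 with OTOF, 0.757 with SCGN and 0.754 with SNCG, with r of 0.713 to 0.868, and each adjusted p of rho was 8.12e-05, again from the smallest p possible. Only 1 of all genes tested, BAIAP3, had a higher rho with SCGN than PENK had. PENK ran from 0.603 to 155 CPM over the calves.

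CALCB, which encodes a calcitonin gene-related peptide, CARTPT, which encodes the CART peptides, and TAC1, the substance P precursor, came next. With BAIAP3 the rho was 0.871 for CALCB, 0.851 for CARTPT and 0.775 for TAC1, and with OTOF it was 0.733, 0.717 and 0.713. With SNCG the values were 0.729, 0.727 and 0.746, and with SCGN they were 0.707, 0.566 and 0.644. CARTPT, unlike PENK, CALCB and TAC1, was not on the study's list for the remaining hypothalamus.

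AVP and OXT, the magnocellular hormones of water balance and milk let-down, also passed with all 4 genes. Both were low in many calves, with diet medians of 0.687 to 3.45 CPM. AVP had rho = 0.706 with SCGN, 0.628 with BAIAP3, 0.559 with SNCG and 0.430 with OTOF (adjusted p = 0.0483 for the last). OXT had 0.662 with BAIAP3, 0.643 with SCGN, 0.578 with SNCG and 0.503 with OTOF. With OTOF, AVP no longer passed without the 4 calves, at rho = 0.403 (adjusted p = 0.0961), and OXT no longer passed without calves 2532 and 911, at rho = 0.440 (adjusted p = 0.0557).

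Over all calves, the feeding peptides of the lateral hypothalamus passed with none of the members. HCRT, the orexin precursor, had rho = 0.162 to 0.353 with these 4 genes, and PMCH, the melanin-concentrating hormone precursor, had 0.186 to 0.366. GAL had 0.205 to 0.275, and PDYN, the dynorphin precursor, had -0.078 to 0.276. Centred by diet and prefix, BAIAP3 and SNCG each passed with 9 of the 13 peptide genes, against 7 over all calves. NPY had 0.484 with BAIAP3, 0.504 with OTOF and 0.506 with SNCG, which passed, and 0.356 with SCGN (adjusted p = 0.119), but without calves 2532 and 911 the rho with OTOF was 0.404 (adjusted p = 0.0830). AGRP, whose highest value was 0.153 CPM, passed with SCGN at rho = 0.454 (adjusted p = 0.0300), a value that rests on a few reads and was 0.293 without calves 911 and 2532 (adjusted p = 0.217).

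POMC was the one peptide gene that followed CHGA. It had rho = 0.533 and r = 0.706 with CHGA (adjusted p = 0.00992 for rho), and rho = -0.345 to 0.030 with the other members. Without the 4 calves the rho with CHGA was 0.282 (adjusted p = 0.236), so the relation rests on those calves. POMC is made in the ARC and in the pituitary. The other pituitary hormone genes, PRL and CGA, passed with none of the 5 genes in 10 pairs, at rho = -0.298 to 0.304.

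**Figure D4:**
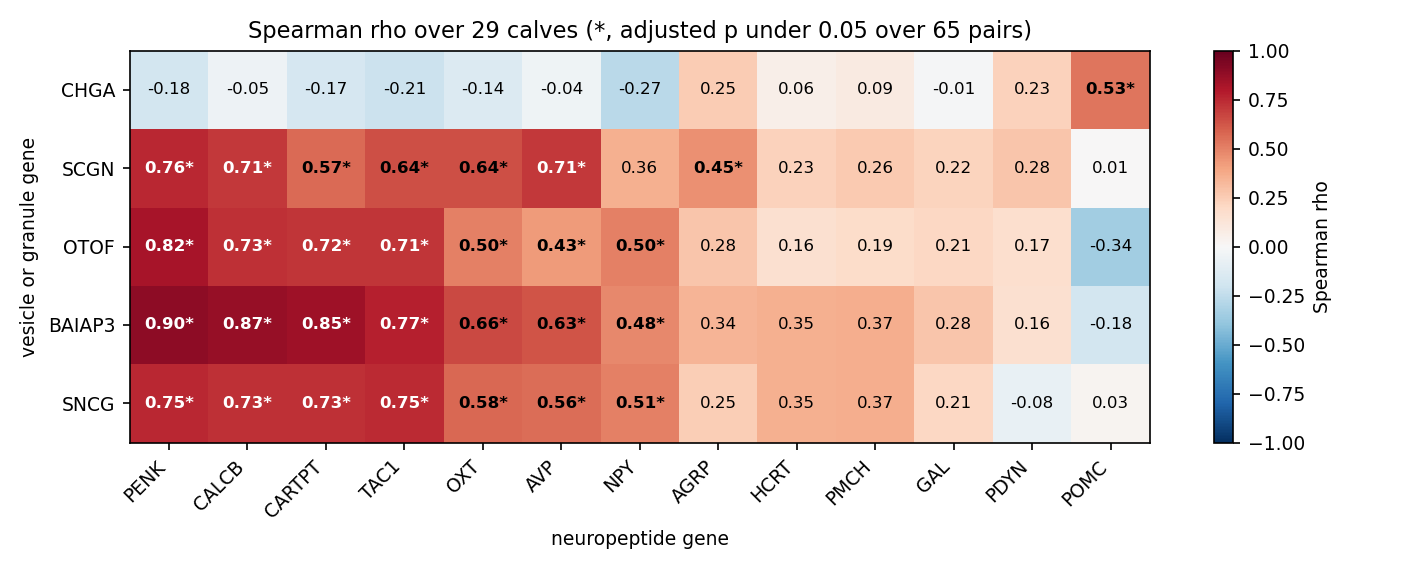
Spearman's rho over 29 calves between each of the 5 genes (rows) and 13 neuropeptide genes (columns), from blue (negative) to red (positive), with a star where the adjusted p over 65 pairs was under 0.05. The 4 lower rows carry stars from PENK to NPY, except SCGN with NPY, and CHGA has a star at POMC alone.

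Within each diet the ties to PENK and CALCB were still found for BAIAP3. BAIAP3 had rho = 0.842 with PENK and 0.903 with CALCB in HI, and 0.921 and 0.857 in MOD. OTOF and PENK had 0.710 and 0.793, and SNCG and PENK 0.679 and 0.764. For SCGN, PENK had 0.600 in HI (adjusted p = 0.0721) and 0.858 in MOD, and CARTPT had 0.024 and 0.735. Differences between the diets were not tested. In all, 20 of the 65 pairs passed in HI and 22 in MOD (17 and 12 by r). The rho was above 0 in all 22 of MOD and in 18 of HI, where CHGA with CARTPT had -0.657 and OTOF with POMC had -0.644 (adjusted p = 0.0490 for each).

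None of the peptide genes passed the diet test. Of the 13, 11 passed the filter, and 8 of these had a lower and 3 a higher log2 mean in HI, with a median log2 fold change of -0.46. Of all genes tested, 42.9% had a log2 fold change below 0. Among the 8, AVP, OXT, HCRT, PENK, PDYN and TAC1 are on the study's list of genes lower in HI in these calves. Their direction is therefore not independent evidence. PENK had a log2 fold change of -0.98 (unadjusted p = 0.167), TAC1 of -0.68 (p = 0.102), CALCB of -0.66 (p = 0.0849) and CARTPT of -0.46 (p = 0.233). CALCB did not pass the filter, as SCGN did not. Of PENK, TAC1, CALCB and CARTPT, all but CARTPT are on the study's list for the remaining hypothalamus of these calves. CARTPT is on its ARC list.

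None of the other vesicle release genes passed the diet test either. Of the vesicle release list, 7 genes had an identifier, all from the study's ARC list, and 6 of them passed the filter. None was called by limma, none had an unadjusted p under 0.05, and all 6 had a log2 fold change above 0, with a median of 0.42. Of all genes tested, limma called 0%, 1.3% had an unadjusted p under 0.05 and 42.9% had a log2 fold change below 0. UNC13C, which encodes another Munc13 protein, had 0.51 (p = 0.109), SV2B, a synaptic vesicle glycoprotein gene, had 0.48 (p = 0.205), RAB3C, a vesicle GTPase gene, had 0.45 (p = 0.375) and CACNA1E, a calcium channel gene, had 0.24 (p = 0.581). In 35 pairs of a member with one of the 7 genes, rho was -0.542 to 0.487 and 0 pairs passed, against 1 pair by r, that of OTOF with SYTL5, which was named after its value was seen. SYTL5 did not pass the filter and was at most 0.892 CPM. With a pseudocount of 0.1, 0 pairs passed by r.

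Markers of cell types were set beside these values. All of these markers stand on the study's lists of diet genes from these same calves, so they are not neutral with respect to diet. The 5 neuron markers GAD2, GABRB2, HPCA, NEFH and LYNX1 had log2 fold changes of 0.34 to 0.53, a median of 0.44, and none passed the test. Their summed level was 670 to 1439 CPM in HI and 144 to 1649 CPM in MOD. The endothelial genes CLDN5 and VCAM1 had log2 fold changes of -0.01 and 0.27, and PRL and CGA had 0.90 (unadjusted p = 0.0825) and 0.21. HBD, a haemoglobin gene that did not pass the filter, had 0.44 (unadjusted p = 0.0491, adjusted p = 0.999) and was at most 3.06 CPM. Of 45 pairs of a member with a marker, 6 passed, against 13 without the 4 calves, 0 in HI alone and 3 in MOD alone. KLK6, an oligodendrocyte marker, had rho = -0.653 with OTOF and -0.622 with BAIAP3, and NEFH, a neurofilament gene of large axons, had -0.627 with SNCG and -0.535 with BAIAP3. CHGA had rho = 0.531 with HPCA and -0.558 with GAD2. KLK6 itself had a log2 fold change of 0.23 and was 46.1 to 217 CPM in HI and 13.1 to 203 CPM in MOD, and it was the only oligodendrocyte marker with an identifier. The part of these markers in the correlations was not tested.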

How the data were processed

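RNA-Seq of the remaining hypothalamus of 29 heifer calves (14 HI, 15 MOD) was analysed, with diets from the sample labels. The authors trimmed reads with Cutadapt, aligned them to UMD3.1 with STAR and counted reads on genes. The submitters' processing notes name FastQC 0.11.8, cutadapt 2.6, STAR 2.6.1, R 3.4 and edgeR 3.5. The deposited values are a signal in CPM that the authors normalised by TMM in edgeR, without a filter on low values. The STAR strand column used is not given in the sources used here. The table lists Ensembl identifiers. Symbols came from the study's supplementary lists of diet genes, which name 114 genes (96 past the filter). The reference gene table matched 0 identifiers, so no coordinates or sequences are given.

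Whole reads were recovered for 100% of the values within 0.001 reads. The main test was limma 3.58.1 with a trend in R 4.3.3 on log2(CPM + 1), a scale that understates changes of low genes. It took the 13785 genes above 1 CPM in 14 or more calves, and the call required a fold over 1.5 and an adjusted p (Benjamini-Hochberg) under 0.10. Spread was tested by limma on the absolute deviation from the diet median. On the recovered reads, the quasi-likelihood test of edgeR 4.0.16 called 0 genes (223 with an unadjusted p under 0.05), its exact test 1 and DESeq2 1.42.0 2. Correlations are Pearson's r and Spearman's rho with two-sided permutation tests (100000 resamples), adjusted within the 10 pairs of members, 65 with neuropeptide genes, 10 with PRL and CGA, 45 with cell type markers and 35 with vesicle release genes. The tests of diet and spread were tried on simulated data, and the correlation tests were not. Counting error follows from 11820640 to 17206435 recovered reads per calf (median 13723597), and p-values measure the spread between calves.

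The genes named are the 5 members, the neuropeptide, pituitary, vesicle release and cell type lists, and for each member the 3 other named genes with the highest rho, of which 1 is not reported here. The members and lists were chosen with earlier results of these data known. Vesicle and marker genes without an identifier were not analysed here. Alternatives were other tools, RLE normalisation, a pseudocount of 0.1, other filters, the file-name prefix as a factor, the diets apart and each calf left out. Leaving out the 4 calves that stood apart (in the tests of diet and spread), or the 2 calves farthest on a gene, was added after seeing the data. The 4 calves were picked from these same data, also where correlations were run without them.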

Additional observations from a re-analysis of the deposited data

How the results depend on the processing

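No gene was called by limma, or under 8 other settings, or with any calf left out. The exact test of edgeR called 1 and DESeq2 2, none a member. A call also required the fold cut-off. With limma-voom weighted by library quality, the smallest adjusted p was 0.016, and 1742 of 13785 genes had an unadjusted p under 0.05. In the limma fit without the 4 calves that stood apart, the smallest adjusted p was 0.0903. These adjusted p-values are under 0.10, and the genes concerned did not pass the fold cut-off. The log2 fold changes of SCGN, OTOF, SNCG and BAIAP3 kept their sign, below 0, in all settings run. With each calf left out they ranged from -0.90 to -0.48 for SCGN, from -0.87 to -0.54 for OTOF, from -1.22 to -0.77 for SNCG and from -1.07 to -0.58 for BAIAP3. That of CHGA ranged from -0.26 (without MOD calf 1395) to 0.024 (without MOD calf 1689), where its sign turned. The difference in deviation of CHGA turned to 0.088 without the 4 calves that stood apart.

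Changes of sign were followed in the 10 pairs of members and in a set of peptide pairs. The set held SCGN, OTOF, SNCG and BAIAP3 with PENK, TAC1, CALCB, CARTPT, AVP and OXT, and CHGA with POMC. The passing pairs with NPY and AGRP were not in it. Those that changed sign were pairs with CHGA. Its rho with SCGN, 0.052 over all calves, was -0.0695 centred by diet and prefix, -0.163 without the 4 calves, -0.0505 in HI, -0.034 in MOD and -0.138 without the 2 farthest calves. With SNCG, where rho was -0.078, it was 0.0507 centred and r was 0.0991, and with BAIAP3, where rho was -0.191, r was 0.185. The causes were not tested. The counts of pairs past the threshold by rho stayed within 1.5 times those over all calves for the members and the neuropeptide genes, and for the pituitary genes they stayed at 0. For the markers, 6 pairs passed over all calves, 13 without the 4, 0 in HI and 3 in MOD. The pairs of members and that set of peptide pairs were also counted under each other setting, Pearson's r among them. Of these values, 245 kept direction and side of the threshold, 24 lost their call, 3 gained one and 8 changed sign.

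SCGN, with a median of 9 reads per calf, and OTOF, with 31, are limited by depth. The study's methods blocked the calves by age, body weight, sire and farm before allocation to a diet. The labels do not give these blocks, so no paired or blocked analysis was possible. After weaning the calves were penned by diet, so pen and diet cannot be told apart.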
